A study of Mus musculus with 9 samples.

Results

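Gasdermins are pore-forming proteins of the cell membrane. This report follows 8 gasdermin genes among the 29205 genes in the gene table of this series. They were taken by gene name (Gsdma, Gsdma2, Gsdma3, Gsdmc, Gsdmc2, Gsdmc3, Gsdmc4 and Gsdmd), and all 8 were found. RNA sequencing was done on back skin of male BALB/c mice aged 6 to 8 weeks, in 3 groups of 3 libraries each, to see how skin with psoriasis-like inflammation answers to a herbal decoction. Before treatment, hair was removed from the back skin in all 3 groups. Control mice got no treatment. IMQ mice got 62.5 mg of cream with 5% imiquimod, an agonist of Toll-like receptors that inflames the skin, on the back each day for 5 days. LYS mice got the same cream and Longkui Yinxiao soup, the decoction under study, into the stomach. The labels give no dose for the soup, and the study's methods place these libraries in the higher-dose arm. Skin was taken on day 13. The total count per library was 17149506 to 19609878 in control, 16915191 to 17988104 in IMQ and 14658645 to 16743869 in LYS.

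The gasdermins of these 8 genes have an amino-terminal domain that can form a ring-shaped pore and a carboxy-terminal domain that holds it in check. A protease that cuts the linker between them frees the pore-forming part, which inserts into the membrane and lets out small proteins such as interleukin-1β, and many pores lead to the lytic cell death called pyroptosis. Gasdermin D is the target of the inflammasome proteases caspase-1 and caspase-11, the gasdermin C proteins can be cut by caspase-8, and gasdermin A of keratinocytes is cut by a protease of group A streptococci. In mice, changed forms of Gsdma3 cause hair loss, and the Gsdma and Gsdmc genes have been duplicated in tandem.

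Levels are given here as scaled FPKM, the deposited FPKM (fragments per kilobase of exon, set against all fragments of the library) divided by the TMM factor of the library, because a level per length can be set beside that of another gene. TMM, the trimmed mean of M-values of edgeR, corrects for the make-up of the RNA, and its factors ran from 0.79 to 1.2. A gene was called when edgeR's quasi-likelihood test gave an adjusted p under 0.05 and the absolute log2 fold change was over 0.58. Genes given as not tested did not pass the edgeR filter on low counts in that comparison. LYS replicate 1 stood apart from the other 2 libraries of its group in several of the values below. The chi-square per degree of freedom of its counts was 57.6 against LYS replicate 2 and 109 against LYS replicate 3, and 37.6 between those 2. IMQ replicate 1 stood apart in its group as well, with 43.3 against IMQ replicate 2 and 62.1 against IMQ replicate 3, and 18.4 between those 2. In control this measure was 22.4 to 54.3. Several results are therefore given with and without these 2 libraries.

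In control skin the order by mean scaled FPKM was Gsdma (24.6 ± 4.73, SD, n = 3), Gsdmd (7.83 ± 0.759), Gsdmc (2.65 ± 0.62), Gsdma3 (1.7 ± 0.853), Gsdma2 (0.0926 ± 0.013), Gsdmc2 (0.0897 ± 0.033), Gsdmc4 (0.0229 ± 0.0233) and Gsdmc3 (0). In this order Gsdmc overlapped with Gsdma3, Gsdma2 with Gsdmc2, and Gsdmc4 with Gsdmc3. In IMQ skin the mean level of Gsdma was 226 and that of Gsdmc 104, followed by Gsdmd (7.12), Gsdmc2 (3.44), Gsdma2 (0.369), Gsdma3 (0.142), Gsdmc4 (0.0507) and Gsdmc3 (0.0471), and the last 4 of these overlapped with their neighbours in the order. In LYS skin Gsdma (91.1), Gsdmc (38.2) and Gsdmd (13.4) were again the 3 highest and did not overlap with each other. Gsdmc2 followed at 1.73 and overlapped with Gsdma3 at 0.439. The summed level of the 8 genes was 29.9 to 42.6 in control, 264 to 392 in IMQ and 104 to 194 in LYS. Gsdma made up 57% to 68.6% of that sum in each of the 9 libraries. The share of Gsdmd was 17.8% to 24.1% in control, 1.89% to 2.26% in IMQ and 4.74% to 15.1% in LYS.

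**Figure D1:**
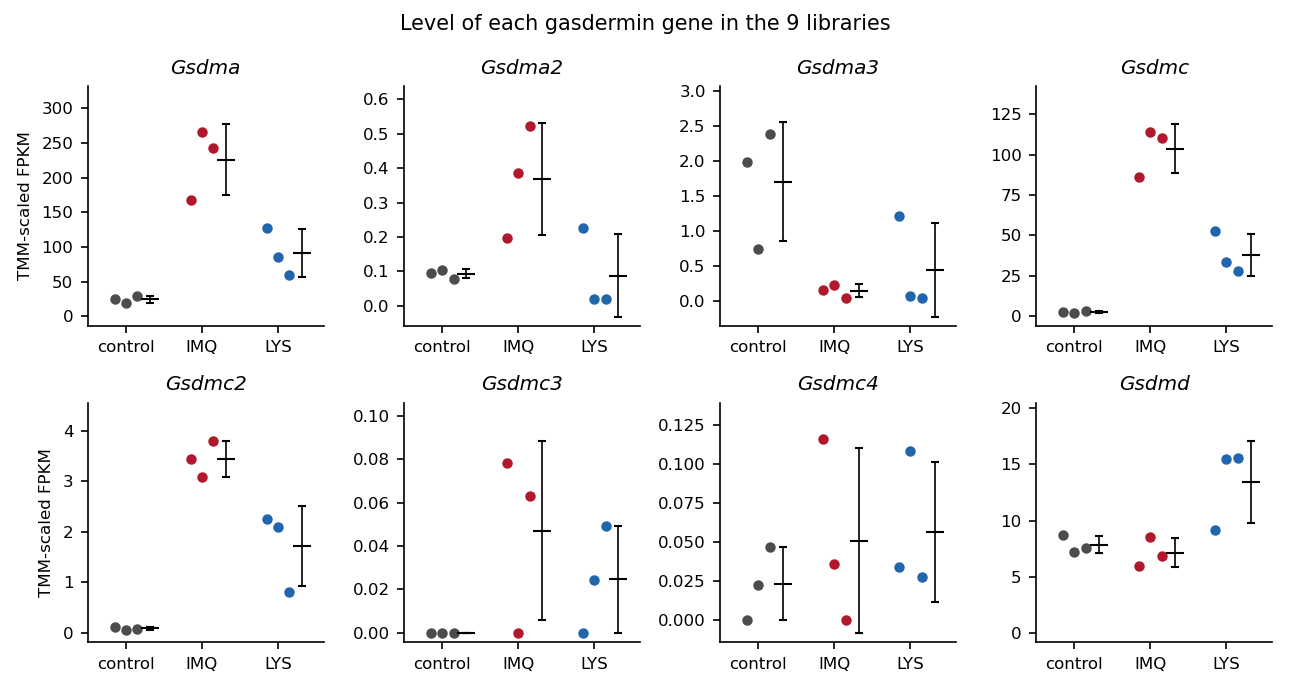
Scaled FPKM of each gasdermin gene in the 9 libraries, with a scale of its own for each gene. Points are libraries in the order of their replicate numbers, and the bar beside them is the mean ± SD of the 3. Gsdma, Gsdma2, Gsdmc and Gsdmc2 lay higher in IMQ than in control without overlap, Gsdma3 lay lower, and the mean of Gsdmd was highest in LYS.

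Imiquimod against control asks what the inflamed skin does. Gsdma, Gsdmc and Gsdmc2 rose and Gsdma3 fell, while the groups overlapped for Gsdmd in scaled FPKM, with 1 IMQ library in the range of control and the other 2 below it. Of the 8 genes, 5 had counts high enough to be tested, and 3 were called higher and 1 lower. Of the 15976 genes tested in this comparison, 24.1% were called higher and 26.9% lower, so a call as such sets no gene apart here. IMQ and control were apart in scaled counts for 4 of these 5, against 70.0% of all genes tested.

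Gsdma (ENSMUSG00000017204), the gasdermin of the upper epidermis, had a scaled FPKM of 24.8, 19.8 and 29.2 in the control libraries, 168, 266 and 243 in the IMQ libraries and 128, 85.9 and 59.1 in the LYS libraries. The 3 groups did not overlap, with IMQ highest and control lowest. Its counts were 1166 to 1635 in control and 7555 to 9734 in IMQ, so counting error is small beside the spread between mice. The log2 fold change of IMQ against control was 3.19 (SE 0.23, 95% interval 2.66 to 3.72, adjusted p = 3.0e-05 by edgeR).

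Gsdmc (ENSMUSG00000079025), a substrate of caspase-8, was at 2.77, 1.98 and 3.2 scaled FPKM in control, 86.1, 114 and 110.4 in IMQ and 52.8, 33.6 and 28.1 in LYS. Again each group was apart from the other 2. The log2 fold change of IMQ against control was 5.28 (SE 0.22, 95% interval 4.77 to 5.79, adjusted p = 5.1e-06 by edgeR), a fold of 38.8. Its tandem copy Gsdmc2 (ENSMUSG00000056293), best known from intestinal epithelium, had 6, 3 and 4 counts in control, 131, 96 and 120 in IMQ and 75, 86 and 33 in LYS. It stood far below Gsdmc in level, and its log2 fold change of 5.21 (SE 0.32, adjusted p = 1.8e-05 by edgeR) was of like size. The intervals of the 2 genes overlapped, and the difference between them was not tested.

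Gsdma3 (ENSMUSG00000064224), the gene of the hair loss mutants, went the other way. Its counts were 66, 26 and 79 in control, 4, 5 and 1 in IMQ and 28, 2 and 1 in LYS. The IMQ libraries were all below the control libraries, and in LYS replicate 1 alone the count lay among those of control. The log2 fold change of IMQ against control was -3.55 (SE 0.64, 95% interval -5.02 to -2.07, adjusted p = 0.00188 by edgeR), and with counts of 1 to 5 in IMQ its size is loosely fixed.

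Gsdma2 (ENSMUSG00000017211) had 6, 7 and 5 counts in control, 10, 16 and 22 in IMQ and 10, 1 and 1 in LYS. These counts were too low for the test of IMQ against control. In a fit of all 9 libraries together, where it passed the filter, its log2 fold change was 1.95 (adjusted p = 0.0451 by edgeR). It was also called higher with no filter on low counts and in each of the 6 fits that leave out a library, where it passed the filter. Gsdmc3 (ENSMUSG00000055827) had 0 to 3 counts in every library, with 0 in all 3 of control. Gsdmc4 (ENSMUSG00000055748) had 0 to 4. Neither passed the filter on low counts in any comparison, and in the fits with no filter neither was called.

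Gsdmd (ENSMUSG00000022575), the effector of the inflammasomes, was at 8.68, 7.21 and 7.6 scaled FPKM in control and 5.98, 8.52 and 6.87 in IMQ. The 2 groups overlapped, and the log2 fold change was -0.15 (95% interval -0.53 to 0.23, adjusted p = 0.461 by edgeR). This value depends on the scaling. In deposited FPKM the control libraries were at 9.91, 7.96 and 9.1 and the IMQ libraries at 5.47, 6.73 and 5.55, without overlap. With library totals in place of TMM the log2 fold change was -0.60 (adjusted p = 0.0116 by edgeR), and Gsdmd was then called lower. The same change of scaling moved the median log2 fold change of all genes from -0.06 to -0.51 and the share of calls that were higher from 47.3% to 25.9%, and with limma on log2(FPKM + 1) that share was 28.1%. Relative to these medians Gsdmd was close to the middle of all genes under either scaling. Gsdma, Gsdmc, Gsdmc2 and Gsdma3 kept their direction and call with library totals.

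Gsdme, another gasdermin, was the only other family gene in the table that passed the filter on low counts. It had 171, 223 and 120 counts in control, 99, 79 and 63 in IMQ and 103, 120 and 91 in LYS. Its log2 fold change of IMQ against control was -0.57 (adjusted p = 0.0802 by edgeR), it was not called, and it was called lower with library totals (adjusted p = 0.00924 by edgeR), with limma on log2(FPKM + 0.1) (log2 fold change -0.83, adjusted p = 0.0189) or without control replicate 3 (log2 fold change -0.76). Pjvk, the gene of pejvakin in the inner ear, and the pseudogenes Gsdmcl1, Gsdmcl2 and Gsdmcl-ps did not pass it in any comparison, and none of them was called in the fits with no filter.

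**Figure D2:**
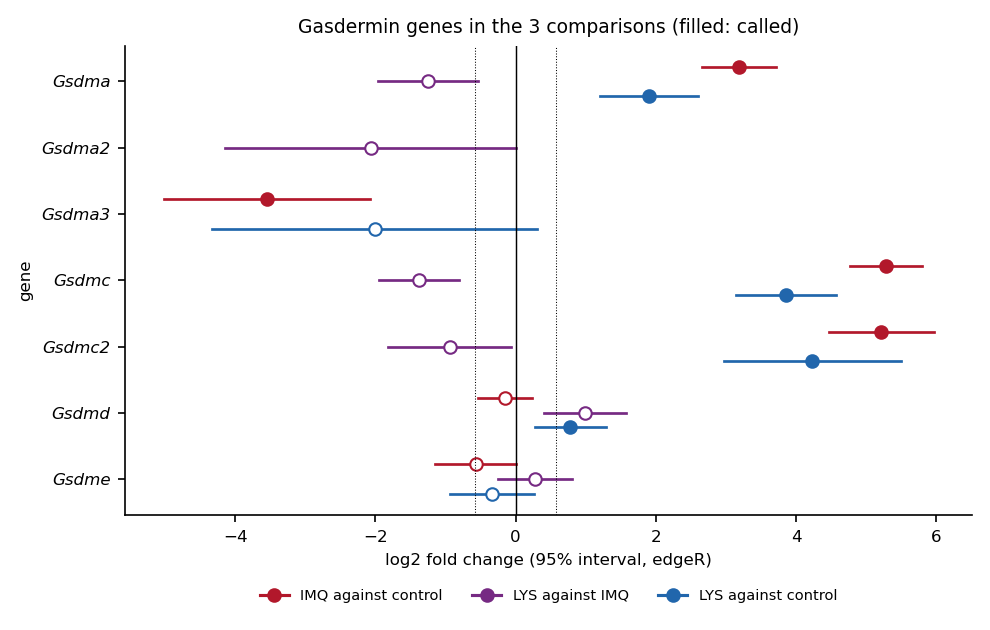
Log2 fold change with its 95% interval (edgeR) for the gasdermin genes with a test, in each of the 3 comparisons. Filled points are called, open points are not, and dotted lines mark a log2 fold change of 0.58 either way. Gsdmc and Gsdmc2 lie farthest to the right against control, and no point of LYS against IMQ is filled.

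In skin pieces, more cells of a type and more RNA per cell cannot be told apart, so the cell type markers are set beside these genes. Of 9 markers of the suprabasal epidermis, where Gsdma is at home, 8 rose in IMQ against control and 1, Flg2, fell. The call of Flg2 was lost without control replicate 1, control replicate 3 or IMQ replicate 2 (-2.02 to -1.05 over the 6 fits that leave out a library). Their summed scaled FPKM was 2277, 1995 and 3448 in control, 14734, 22754 and 25564 in IMQ and 10957, 5839.9 and 6412 in LYS. Krtdap or Krt10 was the highest of them in each library, and none of the 9 was at 0. The order of the groups was that of Gsdma and Gsdmc, and LYS replicate 1 was the highest of its group in all 3. Of 6 markers of basal keratinocytes, 5 rose (3 with library totals) and 1 fell, with a mean sum of 1086 in control, 5762 in IMQ and 4781 in LYS. The part of these cells in the rise of Gsdma and Gsdmc was not tested.

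Markers of hair follicle and sebaceous gland were lower in IMQ as well. All 8 markers of the inner root sheath were called lower in IMQ, and their summed scaled FPKM was 1709, 1101 and 2268 in control, 5.75, 6.22 and 5.2 in IMQ and 5.4, 5.51 and 1.98 in LYS. Krt71 was the highest in control. In IMQ and LYS it was Tchh, with 4.94, 5.64 and 4.64 in IMQ and 4.21, 5.02 and 1.61 in LYS, and Krt26 and Krt72 were at 0 in these libraries. All 10 hair shaft markers in the table were called lower, from a sum of 65.6 to 145 in control to 1.79 to 2.47 in IMQ and 1.08 to 2.63 in LYS, and Krt35, the highest in control, was at 0 in the IMQ libraries. Of 9 sebaceous gland markers, 8 fell, and their sum, mostly Scd1, was 2026, 3159.7 and 1133 in control, 319, 127 and 116 in IMQ and 367, 272 and 412 in LYS. In LYS replicate 1 the count of Gsdma3 lay among those of control, while the sum of the inner root sheath markers, 5.4, did not. Of the 9 sebaceous gland markers, 6 had their highest scaled FPKM of the LYS group in that library and 3, Scd1 and Soat1 among them, in LYS replicate 3. All LYS libraries lay below control for 7 of the 9. Soat1 (4.79, 5.32 and 5.71 in LYS) overlapped with control, and Cidea in LYS replicate 1 (29.4) lay above it. The part of these cells in the fall of Gsdma3 was not tested.

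Genes that work upstream of the pores were counted next. Of 14 genes of inflammasome sensors and their adaptor, 11 were tested in IMQ against control, 5 rose and none fell (edgeR), with a median log2 fold change of 0.37 against -0.06 over all genes. With library totals 5 were called higher and 1, Naip5, lower. With limma on log2(FPKM + 1) 4 were called higher and none lower. Nlrp3, the sensor of membrane damage and crystals, rose by 4.98 on the log2 scale (SE 0.48, adjusted p = 9.6e-05 by edgeR). Mefv, which codes for pyrin, rose by 2.83. Nlrp10, a keratinocyte NLR, rose by 2.51, from a mean of 5.95 to 34.1 scaled FPKM, and was the highest of the list in the IMQ libraries, while Nek7, a partner of NLRP3, was above it in the control libraries. Pycard, the adaptor ASC that joins sensor to caspase, rose by 2.19. Nlrc4, the partner of the NAIP proteins, had a log2 fold change of 0.37 and was not called.

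The proteases that cut gasdermins were read gene by gene. Casp1 was at 9.47, 8.53 and 8.68 scaled FPKM in control and 12, 12.4 and 14.4 in IMQ. Its groups did not overlap and its adjusted p was 0.00575 (edgeR), but the log2 fold change of 0.53 stayed below the threshold of 0.58. Casp4, the gene of caspase-11, had the same log2 fold change (adjusted p = 0.023 by edgeR). Casp1 was called when IMQ replicate 1 was left out, and Casp4 when control replicate 1 or IMQ replicate 1 was. With library totals the log2 fold change was 0.08 for Casp1 (adjusted p = 0.6 by edgeR) and 0.07 for Casp4 (adjusted p = 0.731 by edgeR), and in deposited FPKM the groups overlapped for both. Casp8, which can cut gasdermin C, differed by 0.34. Gzma, a granzyme of killer lymphocytes, fell by 1.87. Gzmb differed by -0.01.

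Among 5 proteins that leave the cell through the pores or on its rupture, 4 rose and 1 fell. Il1b had 25, 40 and 24 counts in control, 5840, 18038 and 21019 in IMQ and 10128, 5443 and 1874 in LYS. Every IMQ and LYS library was far above every control library, and the log2 fold change of IMQ against control was 9.56 (SE 0.69, adjusted p = 3.0e-05 by edgeR). Il1a rose by 3.73, Il33 by 2.53 and Il18, which is made by resting keratinocytes, by 1.19, and Hmgb1, a chromatin protein that acts as an alarm signal outside the cell, fell by 1.32. Of 9 neutrophil markers, 7 were tested, 5 rose and 1 fell, and their summed scaled FPKM was 9.87 to 11.2 in control, 85.6, 460.2 and 116 in IMQ and 64.5 to 116 in LYS. Retnlg was the highest of them in the IMQ libraries, with 361 of the 460.2 in IMQ replicate 2, and Csf3r in the control and LYS libraries. No neutrophil marker was at 0 in all libraries, and the part of neutrophils in the rise of Il1b was not tested.

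Of 12 genes of membrane repair and rupture, 6 rose in IMQ and none fell (edgeR), with a median of 0.60. Of the 12, 9 belong to the ESCRT machinery, which cuts pores out of the membrane, or to its helpers, and the 6 that rose are among these 9. Anxa1, outside these 9, was not called. It was called higher with DESeq2 and without control replicate 1, IMQ replicate 1 or IMQ replicate 3. Its log2 fold change was 0.48 to 0.66 over the 6 fits that leave out a library. Chmp4c rose by 1.73, Vps4b by 1.11, Pdcd6ip by 0.90, Chmp4b by 0.82 and Chmp2a by 0.78. With library totals only Chmp4c and Vps4b of the 6 were called higher, Pdcd6ip, Chmp4b, Chmp2a and Tsg101 were not called, and Vps4a (-0.65) and Anxa2 (-0.84) were called lower. Ninj1, which ruptures the membrane after the pores have formed, had a mean scaled FPKM of 41 in control and 41.2 in IMQ (log2 fold change 95% interval -0.32 to 0.32). Of 10 regulators of gasdermins, 4 rose and none fell (edgeR), with a median of 0.38. Zdhhc9, a palmitoyltransferase, rose by 2.21, Zdhhc5, another, by 1.04, Stat6, the transcription factor of interleukin-4 signals, by 0.98, and Lamtor1, a part of the Ragulator complex, by 0.64. With library totals only Zdhhc9 of these 4 was called higher, and Irf2 (-0.95) was called lower. The call of Lamtor1 was also lost without control replicate 3 (0.56 to 0.73 over the 6 fits that leave out a library), and Irf2, a relative of Irf1, was at -0.49, not called, and called lower without IMQ replicate 2 (-0.59 to -0.39 over these fits). Irf1, a transcription factor of the interferon response, differed by 0.38, and Serpinb1a, an inhibitor of serine proteases, by the same amount, and neither was called.

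LYS against IMQ asks what the soup changed in inflamed skin. The levels of Gsdma, Gsdmc and Gsdmc2 were lower and that of Gsdmd higher in LYS, and the 2 groups did not overlap for these 4 of the 5 genes tested, against 38.9% of the 15460 genes tested. None passed the call rule. By edgeR 0 genes in all were called (0%), while 2978 genes had an unadjusted p under 0.05 and a higher level (19.3%) and 2457 a lower level (15.9%). Whether genes were called depended on the fit. In edgeR no gene was called with library totals, with RLE scaling (relative log expression) or with the replicate number as a block. Neither limma fit on FPKM called a gene. Leaving out IMQ replicate 2, IMQ replicate 3, LYS replicate 2 or LYS replicate 3 gave no call either. Some other fits of the same counts gave calls. DESeq2 called 1972 genes higher (13.3%) and 1420 lower (9.56%). Without IMQ replicate 1, edgeR called 1873 in all. A fit of all 9 libraries called 1627 higher (9.93%) and 1413 lower (8.62%). Without LYS replicate 1, edgeR called 2370 higher (14.9%) and 1892 lower (11.9%).

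For Gsdmc the log2 fold change of LYS against IMQ was -1.38 (95% interval -1.95 to -0.81, adjusted p = 0.0591 by edgeR). For Gsdma it was -1.25 (95% interval -1.96 to -0.54, adjusted p = 0.0606 by edgeR). For Gsdmd it was 0.99 (95% interval 0.40 to 1.58, adjusted p = 0.0612 by edgeR), with 9.19, 15.5 and 15.6 scaled FPKM in LYS. LYS replicate 1 was the library nearest to IMQ for each of the 3. Without it the log2 fold change was -1.67 for Gsdmc (adjusted p = 0.00584), -1.56 for Gsdma (adjusted p = 0.0109) and 1.21 for Gsdmd (adjusted p = 0.00799, all by edgeR), and each was called. DESeq2, the fit of all 9 libraries and edgeR with no filter on low counts called the same 3 genes, and without IMQ replicate 1 edgeR called Gsdma and Gsdmc. None of the 3 was called with library totals, RLE scaling, the replicate block, limma on FPKM or any other library left out. Over the alternatives the adjusted p ran from 4.2e-05 to 0.22 for Gsdmc, from 0.00186 to 0.22 for Gsdma and from 0.00799 to 0.22 for Gsdmd.

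Gsdmc2 had a log2 fold change of -0.94 (95% interval -1.82 to -0.06, adjusted p = 0.124 by edgeR). That of Gsdma2 was -2.06 (95% interval -4.14 to 0.01, adjusted p = 0.144 by edgeR), and without LYS replicate 1, which held 10 of the 12 LYS counts, it was -4.05 and called. Gsdma3 was too low for the test. Gsdme differed by 0.28 (95% interval -0.25 to 0.81). With library totals the median of all genes in this comparison moved from 0.04 to 0.29 on the log2 scale, and no gasdermin changed its direction.

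The suprabasal markers were lower in LYS in 9 of 9 tested, with a median log2 fold change of -1.24 against 0.04 over all genes. The 8 macrophage markers were higher in 8 of 8, with a median of 1.59. None of the 17 markers was called by edgeR. DESeq2 called 8 suprabasal markers lower and 7 macrophage markers higher. By edgeR these counts were 8 and 8 without LYS replicate 1, and 5 and 3 without IMQ replicate 1. The summed scaled FPKM of the macrophage markers, with Lyz2 the highest in each library, was 1705, 1311 and 1067 in control, 896, 828 and 696 in IMQ and 1333, 2318 and 3003 in LYS, and none of them was at 0. LYS replicates 2 and 3 were the highest for these markers and for Gsdmd. The part of macrophages in the level of Gsdmd was not tested. The fibroblast markers were higher in 6 of 6, the adipocyte markers in 6 of 6, the skeletal muscle markers in 6 of 7 and the T cell markers in 7 of 8, with none called by edgeR. DESeq2 called 4 fibroblast, 4 adipocyte, 0 muscle and 2 T cell markers higher. By edgeR these counts were 3, 4, 0 and 0 without LYS replicate 1, and 6, 5, 0 and 1 without IMQ replicate 1. In IMQ against control, all 6 fibroblast, all 6 adipocyte, 6 of 7 muscle (5 without control replicate 1, 7 without IMQ replicate 1) and 5 of 8 macrophage markers were called lower, and of the 8 T cell markers 4 rose and 1 fell. With library totals all 8 macrophage markers were called lower, and 1 T cell marker was called higher and 1 lower. Without IMQ replicate 2, 3 macrophage markers were called lower, and 4 without control replicate 1, control replicate 2 or IMQ replicate 3. Without control replicate 2, 1 T cell marker was called higher and none lower. Without control replicate 1 there were 3 higher and none lower, without IMQ replicate 2 there were 4 higher and none lower, and without control replicate 3, IMQ replicate 1 or IMQ replicate 3 there were 3 higher and 1 lower.

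In the pathway lists of sensors, released proteins, repair genes and regulators, edgeR called no gene in LYS against IMQ. Of the 11 inflammasome genes tested 6 were higher and 5 lower in LYS, with a median log2 fold change of 0.31 against 0.04 over all genes. DESeq2 called 3 of the inflammasome list higher and 2 lower, 2 of the released proteins lower, 1 of the repair list higher and 4 lower, and 2 of the regulators higher and 1 lower. Without LYS replicate 1, edgeR called 4 inflammasome genes higher and 2 lower, 1 released protein lower, 1 repair gene higher and 5 lower, and 2 regulators higher and 2 lower. Without IMQ replicate 1 it called 3 repair genes lower and none of the other 3 lists. The level of Il1b was lower in the LYS mean, by -1.48 on the log2 scale (95% interval -3.23 to 0.28, adjusted p = 0.197 by edgeR), and its groups overlapped. Over the 6 fits that leave out a library this value was -2.30 to -1.04, and Il1b was called in none of them. Nlrp10 differed by -1.09, Il18 by -1.01, Pycard by -0.80 and Ninj1 by 0.71. Without LYS replicate 1, the inflammasome genes called lower were Nlrp10 (-1.56) and Pycard (-1.04), those called higher were Nlrc4 (1.80), Naip5 (1.51), Nlrp1b (1.13) and Naip2 (0.99), and Ninj1 (0.88) was the repair gene called higher. The released protein called lower in that fit was Il1a (-1.79 to -1.02 over the 6 fits that leave out a library). DESeq2 called Il1a and Il18 lower. Of the proteases, Casp1 differed by 0.03, Casp4 by 0.39, Casp8 by 0.01, Gzma by 1.73 and Gzmb by 1.53 (adjusted p = 0.0605 by edgeR). Without LYS replicate 1, Gzma (2.27) was called. Gzmb was called without LYS replicate 1 (1.26), without IMQ replicate 1, with DESeq2 and in the fit of all 9 libraries.

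LYS against control asks how far the treated skin was from untreated skin. Of the 5 gasdermins tested, 4 were called higher and none lower, among 16003 genes of which 15.1% were called higher and 12.9% lower. LYS and control were apart in scaled counts for 4 of these 5, against 50.3% of all genes tested. This comparison shares its LYS libraries with the one before and its control libraries with the first, so the 3 are not independent. Gsdmc was still 3.85 above control on the log2 scale (SE 0.31, adjusted p = 3.6e-04 by edgeR), Gsdmc2 4.23 (SE 0.54, adjusted p = 0.00192) and Gsdma 1.90 (SE 0.30, adjusted p = 0.00404). These 3 kept their call in each alternative that was run.

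Gsdmd was called higher, by 0.78 on the log2 scale (SE 0.22, 95% interval 0.28 to 1.29, adjusted p = 0.03 by edgeR). This call is fragile. It was lost when any of the 3 control libraries, LYS replicate 2 or LYS replicate 3 was left out (0.67 to 0.85), with library totals (0.66, adjusted p = 0.0815 by edgeR), with the replicate number as a block (0.75, adjusted p = 0.0863 by edgeR) and with limma on log2(FPKM + 1) (0.56, adjusted p = 0.111) or log2(FPKM + 0.1) (0.60, adjusted p = 0.111). It also falls short of the stricter log2 threshold of 1. Without LYS replicate 1 it was kept (adjusted p = 0.00182 by edgeR), and over all alternatives the adjusted p ran from 0.00182 to 0.122. In deposited FPKM LYS replicate 1, at 8.98, lay among the control libraries. Gsdma3 had a log2 fold change of -2.01 (95% interval -4.33 to 0.30, adjusted p = 0.158 by edgeR), and without LYS replicate 1 it was -4.90 and called lower. Gsdme differed by -0.34.

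Of the 11 tested inflammasome genes, 7 were called higher and none lower (edgeR), with a median of 1.22 against -0.01 over all genes. The count was 2 without control replicate 1, 2 without control replicate 2, 3 without LYS replicate 2 and 9 without LYS replicate 1. Nlrp3 rose by 4.27 and Mefv by 3.10. Nlrc4 was at 1.71, Nlrp10 at 1.38 and Pycard at 1.35, and each of these 3 calls was lost without control replicate 1 and without control replicate 2. Nlrc4 also lost it without control replicate 3, LYS replicate 2 or LYS replicate 3, and Pycard without LYS replicate 2. Over the 6 fits that leave out a library the log2 fold change was 1.46 to 2.11 for Nlrc4, 0.89 to 1.64 for Nlrp10 and 1.10 to 1.59 for Pycard. Among the proteases, Casp4 was at 4.52, 3.46 and 4.12 scaled FPKM in control, 5.11, 5.74 and 6.69 in IMQ and 7.03, 7.98 and 7 in LYS, and rose by 0.87 (adjusted p = 0.00623 by edgeR). Gzmb rose by 1.47, a call that was lost without control replicate 2 or control replicate 3 (1.19 to 1.67 over the 6 fits that leave out a library). Casp1 differed by 0.51 and was not called.

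Among the cell type markers, 5 of 8 T cell markers were called higher in LYS than in control and none lower (4 to 6 under the alternatives), with a median log2 fold change of 1.68. Their summed scaled FPKM was 6.63, 4.31 and 4.26 in control, 8.96, 5.19 and 7.02 in IMQ and 11.9, 13.6 and 10.4 in LYS. Cd2 was the highest of them in control and Cd3g in LYS, and none was at 0. The part of T cells in the level of Gzmb was not tested. Of the 9 suprabasal markers 7 were called higher (3 to 7 under the alternatives) and 1 lower (0 or 1), and of the 7 neutrophil markers tested 5 higher (4 to 6) and 1 lower (0 or 1). Of the 6 basal keratinocyte markers, 5 were called higher (2 to 5 under the alternatives) and 1 lower. No macrophage marker was called in the main edgeR fit, while 1 was called higher with no filter or in the fit of all 9 libraries, 2 with DESeq2 and all 8 without LYS replicate 1. All 8 inner root sheath markers, all 10 hair shaft markers and 6 of 9 sebaceous gland markers (3 to 8) were called lower. So were all 6 adipocyte markers (0 to 6), 5 of 7 skeletal muscle markers (2 to 6) and 2 of 6 fibroblast markers (0 to 3). The adipocyte count was 0 without LYS replicate 2 and 1 without control replicate 1 or control replicate 2.

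Of the 5 released proteins, 3 rose and 1 fell. Il1b rose by 8.06, Il33 by 2.74 and Il1a by 2.41, Hmgb1 fell by 1.17, and Il18 was at 0.13 and not called. Of the 12 repair genes, 1 was called higher and none lower. It was Ninj1 at 0.65 (adjusted p = 0.0356 by edgeR), and its call was lost with library totals and when any control library, LYS replicate 2 or LYS replicate 3 was left out (0.54 to 0.82 over the 6 fits). Chmp4c was at 0.67 and Vps4b at 0.45, neither called. Of the 10 regulators, 4 rose and none fell, Zdhhc9 by 1.33, Irf1 by 0.93, Stat6 by 0.86 and Serpinb1a by 0.72. The call of Serpinb1a was lost with library totals and when LYS replicate 1, LYS replicate 2 or any control library was left out (0.46 to 0.88 over the 6 fits).

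The genes nearest to each gasdermin in pattern were looked up among 14764 genes with a mean CPM (counts set against the scaled library total) of at least 1, by the mean absolute difference of log2(CPM + 1) over the 9 libraries, each gene centred on its own mean. For Gsdma they were Ppl (0.0646), which codes for periplakin of the cornified envelope, Ide (0.0822), the insulin-degrading enzyme, Hip1r (0.0987), Prom2 (0.0992) and Tmem154 (0.0999). For Gsdmc the nearest was Casp14 (0.0994), the caspase of cornification, followed by Il1f6 (0.108), a cytokine of the interleukin-1 family, Ptpn5 (0.136), Nkpd1 (0.137) and Teddm3 (0.168). Casp14 was at 30.7, 28.1 and 38.6 scaled FPKM in control, 977, 1182 and 1432 in IMQ and 568, 320.1 and 308 in LYS. For Gsdmc2 they were 2010016I18Rik (0.134), Stap2 (0.163), 4930423D22Rik (0.171), Foxq1 and Dlx5 (both 0.175). The fits were looser for Gsdma3, with Foxc1 (0.195), Rab11fip4 (0.226), Ccdc136 (0.231), Fanci (0.232) and Micall2 (0.258). For Gsdmd they were 9630028I04Rik (0.113), Maf (0.127), a transcription factor also found in macrophages, Cmtm7 (0.129), Ncf1 (0.132), a subunit of the phagocyte oxidase, and Nlrp1b (0.134), an inflammasome sensor. With deposited FPKM in place of the scaled counts, 4 of the 5 were shared for Gsdmc, 3 for Gsdma, 2 for Gsdmc2, 2 for Gsdma3 and 0 for Gsdmd. The added 1 flattens low levels, so for Gsdma3 and Gsdmc2 likeness does not mean a like fold change. Over the 6 fits of IMQ against control that leave out a library, Gsdma3 was at -4.00 to -3.14 and Foxc1 at -1.81 to -1.29. Gsdmc2 was at 4.99 to 5.50 and 2010016I18Rik at 3.40 to 3.89.

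The 8 genes lie at 3 places of the mouse genome (GRCm38, GENCODE M21). Gsdma3, Gsdma2 and Gsdma stand in this order on the plus strand at chr11:98626360-98677708. Within these 51349 bases Gsdma3 fell and Gsdma rose in IMQ. Gsdmc, Gsdmc2, Gsdmc3 and Gsdmc4 stand on the minus strand at chr15:63775968-63912297, where the first 2 rose and the other 2 had almost no counts in any group. Gsdmd stands alone at chr15:75862327-75867408 on the plus strand. No exon of the 8 genes overlapped with an exon of another annotated gene.

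The neighbours did not all move with the gasdermins. Next to the Gsdma genes, Psmd3, a proteasome subunit, rose in IMQ by 0.67, Ormdl3 (-0.52) and Med24 (-0.24) were not called, and Csf3, the growth factor of neutrophils, had 0, 0 and 3 counts in control, 25, 129 and 65 in IMQ and 16, 20 and 10 in LYS. Psmd3 was not called with library totals. Gm12355 was not tested, and Lrrc3c is not in the table. Ormdl3 and Med24 were called lower with library totals (-0.96 and -0.69), and Ormdl3 also without control replicate 3 (-0.64 to -0.33 over the 6 fits that leave out a library). The nearest neighbour of the Gsdmc genes, Fam49b, was at 0.01, and Asap1 was at 0.27. Adcy8 was not tested. On the other side of that cluster the nearest protein-coding gene, Myc, was 1785.6 kb away and rose by 0.70, and farther out A1bg was not tested and Fam84b, listed as Lratd2 in the table, was at 0.21 and not called. The call of Myc was lost without control replicate 1 (0.57 to 0.78 over the 6 fits that leave out a library) and with library totals. Beside Gsdmd, Mroh6, 16.7 kb downstream, had 65, 60 and 115 counts in control, 685, 662 and 640 in IMQ and 321, 366 and 205 in LYS, and rose by 3.57 in IMQ (SE 0.27, adjusted p = 3.3e-05 by edgeR). Naprt rose by 1.12, Zc3h3 by 0.84 and Eef1d by 0.80, and the latter 2 were not called with library totals. Mafa fell by 1.10, and Rhpn1 was not tested in IMQ against control.

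**Figure D3:**
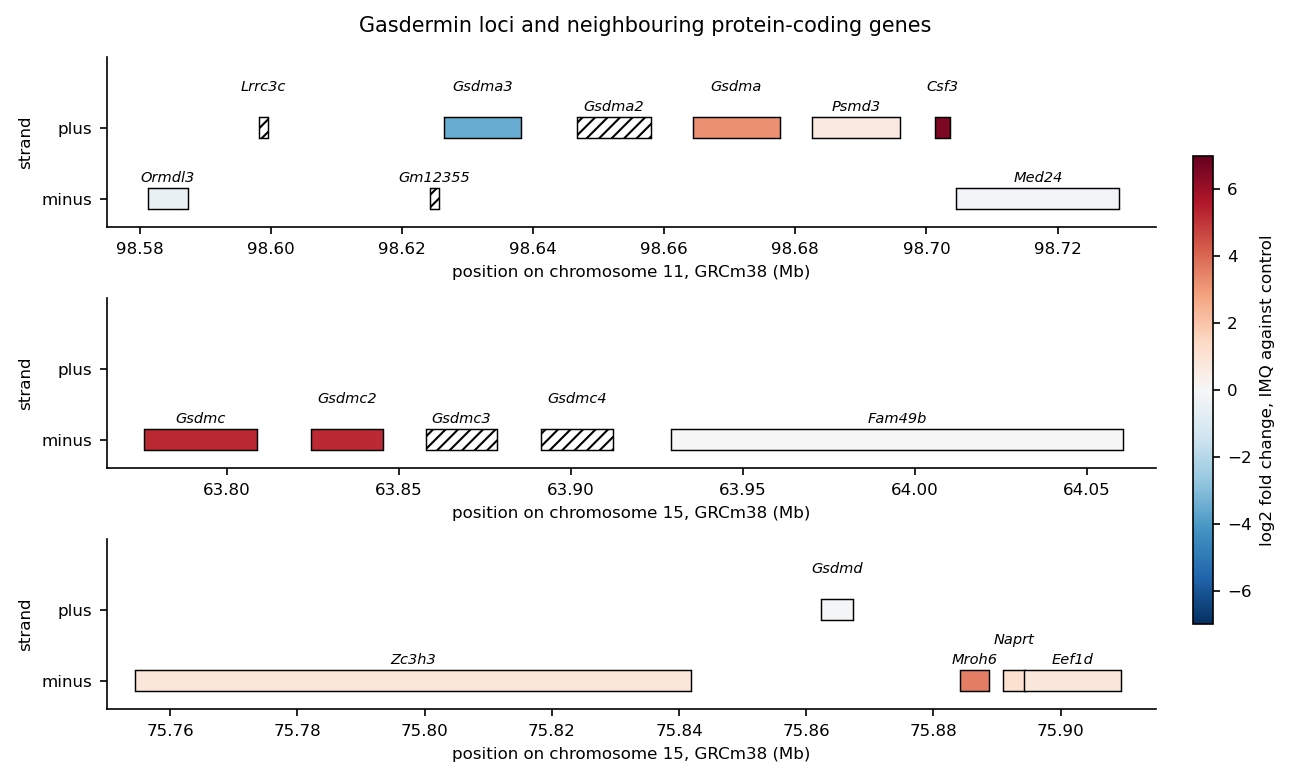
Gasdermin genes and their nearest protein-coding neighbours to scale on chromosomes 11 and 15 (GRCm38), coloured by the log2 fold change of IMQ against control. Hatched genes were not tested or not in the table, and neighbours farther away than the window are not drawn. Gsdma3 and Gsdma differ in direction within a single cluster, and Mroh6 is red where Gsdmd is near 0.

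Since the copies within a cluster are alike, reads can fall to more than 1 of them. By coding sequence Gsdma was 89.7% identical to Gsdma2 and 85.8% to Gsdma3, and Gsdmc was 82.8% identical to Gsdmc2, 83.1% to Gsdmc3 and 83.8% to Gsdmc4. Gsdmc2 and Gsdmc3 shared 97.1% of their bases, and Gsdmc4 93.0% with either. Between the 2 clusters, and with Gsdmd, the identity was 49.9% to 52.9%. Of the 100-base windows of the longest transcript, 28.6% for Gsdmc2, 30.5% for Gsdmc3 and 20.2% for Gsdmc4 occurred letter for letter in another gene, in each case other Gsdmc genes. The share was 7.33% for Gsdmc, 3.05% for Gsdma2, 1.83% for Gsdma, and 0 for Gsdma3 and Gsdmd. How reads that match several genes were treated is not given in the sources used here, so the counts of Gsdmc2, Gsdmc3 and Gsdmc4 are uncertain, and those of Gsdma, Gsdma3 and Gsdmd are little touched by it. The start of the coding sequences shows this closeness, with capitals at the bases that differ from Gsdma in the copies of the chromosome 11 cluster and from Gsdmc in those of chromosome 15, each over 60 bases.
Gsdma: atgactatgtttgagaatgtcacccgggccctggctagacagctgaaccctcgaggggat
Gsdma2: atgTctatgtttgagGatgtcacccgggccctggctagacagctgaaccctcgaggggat
Gsdma3: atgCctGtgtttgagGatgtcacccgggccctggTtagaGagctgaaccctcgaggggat
Gsdmc: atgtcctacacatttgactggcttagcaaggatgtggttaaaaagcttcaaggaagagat
Gsdmc2: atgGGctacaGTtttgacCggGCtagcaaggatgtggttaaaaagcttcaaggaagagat
Gsdmc3: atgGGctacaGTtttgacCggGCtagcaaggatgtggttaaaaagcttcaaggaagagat
Gsdmc4: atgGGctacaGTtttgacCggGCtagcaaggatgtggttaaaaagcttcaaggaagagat
Gsdma3 differed from Gsdma at 5 of the 60 bases and Gsdma2 at 2. Gsdmc2, Gsdmc3 and Gsdmc4 differed from Gsdmc at 7 each and had the same letters as each other here.

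RefSeq promoter windows of 300 bases (GRCm38.p6) were at hand for 2 of the 8 genes, Gsdma3 and Gsdmc3. Each was searched on both strands for 5 motifs. The TATA box letters TATAAA occurred in 13.6% of 32851 windows of this length. The AP-1 letters TGANTCA occurred in 7.81%. The STAT letters TTCNNNGAA occurred in 8.30%. An interferon response motif occurred in 3.44% and an NF-κB motif in 1.63%. Gsdma3 held the interferon response motif and the NF-κB motif, each on the minus strand, and none of the other 3. Gsdmc3 held none of the 5. The 250 bases before the start of Gsdma3, which was called lower in IMQ against control, are at chr11:98626099-98626348 on the plus strand, with the interferon response match and then the NF-κB match in capitals.
Gsdma3: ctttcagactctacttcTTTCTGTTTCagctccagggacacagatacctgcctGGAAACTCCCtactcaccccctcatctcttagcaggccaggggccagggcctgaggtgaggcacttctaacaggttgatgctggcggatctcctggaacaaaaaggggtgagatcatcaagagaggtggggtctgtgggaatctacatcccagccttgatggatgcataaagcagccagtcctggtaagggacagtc
A match gives the letters alone, and no binding was measured.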

How the data were processed

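Bulk RNA sequencing of back skin from 9 mice gave 1 gene table. The authors deposited read counts per gene and FPKM values for each library. Per the submitters' processing notes, HISAT2 and HTSeq 0.13.5 were used with GRCm38. The length behind the deposited FPKM equalled the GENCODE M21 exon length for 98.4% of the 29107 genes matched.

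The counts were tested in edgeR 4.0.16 (R 4.3.3) with TMM scaling, filterByExpr, the quasi-likelihood F test and Benjamini-Hochberg adjustment over all genes tested, in a fit of the 6 libraries of each comparison. Standard errors were taken from the log2 fold change and F. An exact permutation test of 3 against 3 cannot go below 0.1 and was not used. Alternatives were DESeq2 1.42.0, limma 3.58.1 on log2(FPKM + 1) and log2(FPKM + 0.1), other scalings, no filter, a fit of all 9 libraries, a replicate block, a log2 threshold of 1 and leaving out each library. Sequences were aligned with Biopython 1.88, and figures drawn with matplotlib 3.10.9 in Python 3.11.15.

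The text names all 8 members. Of each pathway list it names the called genes with the largest absolute log2 fold change in any comparison, at most 5 (not every gene so picked is described, and the protease list is given without counts), and always Casp1, Casp4, Casp8, Nlrp3, Nlrp10, Pycard, Il1b, Il18 and Ninj1. It also names the 5 genes nearest in pattern to each member with a mean CPM of at least 1, and the 3 nearest protein-coding genes on each side of each locus. Casp14 levels and the marker genes named beside list sums, Nek7, Naip2, Naip5, Lamtor1, Irf2, Tsg101, Vps4a, Anxa1 and Anxa2 fall outside this rule and were chosen after their values were seen. The members and lists were chosen with earlier results of these data known. The labels name the libraries as replicates and no more, so p-values measure the spread between these libraries. Amino acid sequences were not used here.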

Additional observations from a re-analysis of the deposited data

How the results depend on the processing

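In IMQ against control, 4 gasdermin genes were called, and 4 or 5 under each of the 15 alternatives. In LYS against IMQ the count was 0 by edgeR and 3 with DESeq2, with no filter on low counts and in the fit of all 9 libraries, and 0 to 4 when a library was left out (2 without IMQ replicate 1, 4 without LYS replicate 1). Over all genes it was 0, against 3392 with DESeq2, 2419 with no filter, 3040 in the fit of all 9 libraries and 0 to 4262 when a library was left out. The cause was not tested. In LYS against control 4 gasdermin genes were called, and 3 to 5 under the alternatives, and the 4476 genes called became 2910 at an absolute log2 fold change over 1 and 2579 to 5072 when a library was left out (2579 without control replicate 1, 2947 without control replicate 2, 2926 without LYS replicate 2). Library totals changed the share of higher calls in LYS against control from 53.9% to 41.5%, and limma on log2(FPKM + 1) gave 42.6%.

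With the replicate number as a block, 4, 0 and 3 gasdermin genes were called in the 3 comparisons, in the order of the text, and 8044, 0 and 3126 genes in all, and Gsdmd lost its call in LYS against control. Same-numbered libraries were also correlated across genes, which are not independent replicates. The values were 0.00937, -0.0572 and 0.2 for IMQ and control and -0.46, 0.0787 and -0.404 for LYS and IMQ. For LYS and control they were -0.122, 0.0191 and -0.376. They rest on deviations from the mean of only 3 libraries in each group, so they cannot decide whether the numbers pair the mice.

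Of the log2 fold changes of gasdermin genes under the alternatives, 239 kept direction and side of the threshold, 21 gained a call, 10 lost it and none turned. Of the list counts, 180 stayed within 1.5 times and 45 did not. The alternatives for the list counts that leave out a library, change the threshold or use FPKM, those for the marker lists and those for Gsdme were chosen after seeing the data. Depth limits Gsdma2, Gsdma3, Gsdmc2, Gsdmc3 and Gsdmc4, whose counts of 0 to 7 in at least 1 group leave the size of a fold loosely fixed.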
